A study of Homo sapiens with 4 samples.

Results

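The p53 target genes described here are 10 genes taken by symbol as well-known targets of the transcription factor p53: CDKN1A, MDM2, BBC3, BAX, FAS, SESN1, TP53I3, RRM2B, ZMAT3 and TP53INP1. All 10 were found among the 56832 genes of the deposited table of normalised read counts, and all 10 had a mean count of at least 10 and were tested. The cells were A375, an established human melanoma line, labelled wild type. The vehicle group (2 libraries) received isopropanol and the octanoate group (2 libraries) was given octanoate, a medium-chain fatty acid, at 1 mM, each for 48 h, and all libraries were made from total RNA of cells grown in DMEM with serum. The labels do not say whether the 2 libraries of a group came from separate cultures, so p-values measure the spread between these libraries only, and 1 cell line cannot stand for melanoma in general. The stated aim of the series was to find genes and signatures that respond to the treatment.

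The transcription factor p53 is held at a low level by the ubiquitin ligase MDM2, is stabilised by DNA damage and other stresses, and then raises the transcription of genes that stop the cell cycle, repair DNA, restrain metabolism or kill the cell. MDM2 is itself a p53 target, which closes a feedback loop. Several genes of this group also respond to other inputs: CDKN1A, BBC3 and some further p53 targets can be raised without p53.

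Under octanoate the p53 target genes did not change together. CDKN1A rose 43.8%, MDM2 rose 14.4% and FAS rose 16.9% over the vehicle mean, TP53INP1 fell by 29.8%, and the other 6 genes did not pass the test. With limma (Benjamini-Hochberg adjusted p under 0.05 over 20250 tested genes) 4 of 10 members were called, which is 40%. The same test called 29.9% of all tested genes, and 38.7% of the 9507 genes whose mean count lay in the members' range, from 333 to 8936. By direction, 3 members were called higher beside 16.2% of all tested genes, and 1 was called lower beside 13.7%. The median log2 difference of the members was 0.07 beside 0.01 for all tested genes. The share of members called was thus close to the share among genes of like abundance.

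p53 binds a pair of decamers made of purines, a C and a G that enclose A or T, and pyrimidines. That p53 consensus pair, without a spacer and on both strands (it is its own reverse complement), was compared with the 250 bases before each annotated start in RefSeq's promoter table (GRCh38.p14). Of the 10 members, 8 matched the table, with 16 start sites. RRM2B and TP53INP1, the member called lower, were not in it, so their promoters were not compared. The closest stretch had 2 mismatches of 20 bases for MDM2 and for FAS (5 at their upstream starts), 3 for SESN1, 4 for BAX and ZMAT3, and 5 for CDKN1A, BBC3 and TP53I3. Of all 35116 windows of this length, 0.561% held a stretch with at most 2 mismatches, 4.36% one with at most 3 and 64.5% one with at most 5. These shares are per window, while the value of a member is the closest over all its start sites, so the 2 are not like for like. The windows printed are those with at most 3 mismatches, where only the closest 20-base stretch is in capitals, and that of CDKN1A, the member with the largest rise. Any further stretch within 3 mismatches is left unmarked, and the MDM2 window holds such a stretch. In CDKN1A the capitals mark the GC box GGGCGG, searched on both strands and held by 42.6% of windows. They were chosen after the counts had been seen. For MDM2, SESN1 and CDKN1A, bases in exons of the gene's own transcripts were left out. The full CDKN1A window holds 4 GC boxes, and not all of them lie in the printed bases. The whole FAS window lies in exons of other FAS transcripts, so only its site with 5 bases on each side is shown, and these are exon bases.
MDM2, chr12:68808767-68809001, plus strand, before the start at 68809017: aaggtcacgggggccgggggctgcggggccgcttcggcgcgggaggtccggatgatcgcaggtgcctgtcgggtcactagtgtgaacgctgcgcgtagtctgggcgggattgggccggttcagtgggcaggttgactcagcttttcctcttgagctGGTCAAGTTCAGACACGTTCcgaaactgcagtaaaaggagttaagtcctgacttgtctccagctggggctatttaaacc
FAS, chr10:88991304-88991333, plus strand, before the start at 88991431: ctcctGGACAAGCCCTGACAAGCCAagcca
SESN1, chr6:109008989-109009238, minus strand, before the start at 109008988: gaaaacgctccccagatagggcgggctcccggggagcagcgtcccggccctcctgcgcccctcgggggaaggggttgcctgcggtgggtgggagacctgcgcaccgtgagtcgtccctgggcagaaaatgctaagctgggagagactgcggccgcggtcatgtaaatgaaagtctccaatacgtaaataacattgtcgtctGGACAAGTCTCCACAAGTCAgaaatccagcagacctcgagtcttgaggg
CDKN1A, chr6:36678464-36678657, plus strand, before the start at 36678714: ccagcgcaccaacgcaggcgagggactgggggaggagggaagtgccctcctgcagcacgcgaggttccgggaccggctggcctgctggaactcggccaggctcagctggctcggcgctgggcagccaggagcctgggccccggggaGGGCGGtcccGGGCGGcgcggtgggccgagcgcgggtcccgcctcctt

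MDM2 and FAS, whose windows hold the closest stretches, were both called higher, whereas SESN1 was not called. CDKN1A was called higher although this window held no stretch closer than 5 mismatches. The best-known p53 sites of CDKN1A lie further upstream, outside these bases. A match is a description of letters, the RNA counts do not tell which start was used, and binding of p53 was not measured.

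Recovered read totals ran from 67785956 to 78005035 per library, and mitochondrial transcripts held 3.03% to 3.21% of reads. Replicates differed by more than sampling noise (chi-square per degree of freedom 4.77 in vehicle and 6.50 in octanoate), so each library was kept. Of the melanoma lineage markers, SOX10 was abundant, from 34072 to 41363 normalised counts, and was not called. MITF fell from 3533 and 3330 counts in vehicle to 2414 and 2511 (log2 difference -0.48, limma adjusted p 2.33e-06), and S100B from 4234 and 3741 to 1917 and 1746 (log2 difference -1.12, limma adjusted p 9.15e-12). The pigment genes were low, with PMEL, which rose, between 65.8 and 98.2 and TYR between 1.93 and 3.93 counts. The summed level of 9 lineage markers, mostly SOX10, was 45200 to 49400 in vehicle and 38700 to 43800 in octanoate. Markers of other cell types gave sums in vehicle and octanoate of 16500 to 18800 and 14600 to 15400 (6 epithelial genes, mostly KRT8 and KRT18), 2560 to 2620 and 2240 to 2390 (6 fibroblast genes), 600 to 670 and 725 to 777 (5 immune genes, mostly LYZ) and 576 to 580 and 787 to 792 (4 endothelial genes). The sums hide calls for single markers. KRT14 fell (log2 difference -2.08, limma adjusted p 2.40e-13), as did COL1A1 (-0.69, limma adjusted p 3.63e-05) and COL1A2 (-0.99, limma adjusted p 0.0394). PECAM1 rose (0.95, limma adjusted p 1.05e-05), as did VWF and LYZ (0.50 and 0.26, limma adjusted p 0.0479 and 0.0273). The authors' deposited table lists an adjusted p of 0.207 for COL1A2, 0.286 for VWF, 0.122 for LYZ and 0.224 for PMEL. No marker was at 0 in all libraries, but CD3E was at 2.91 counts or fewer and PTPRC at 10.8 or fewer. The part of these markers in the results was not tested.

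**Figure D1:**
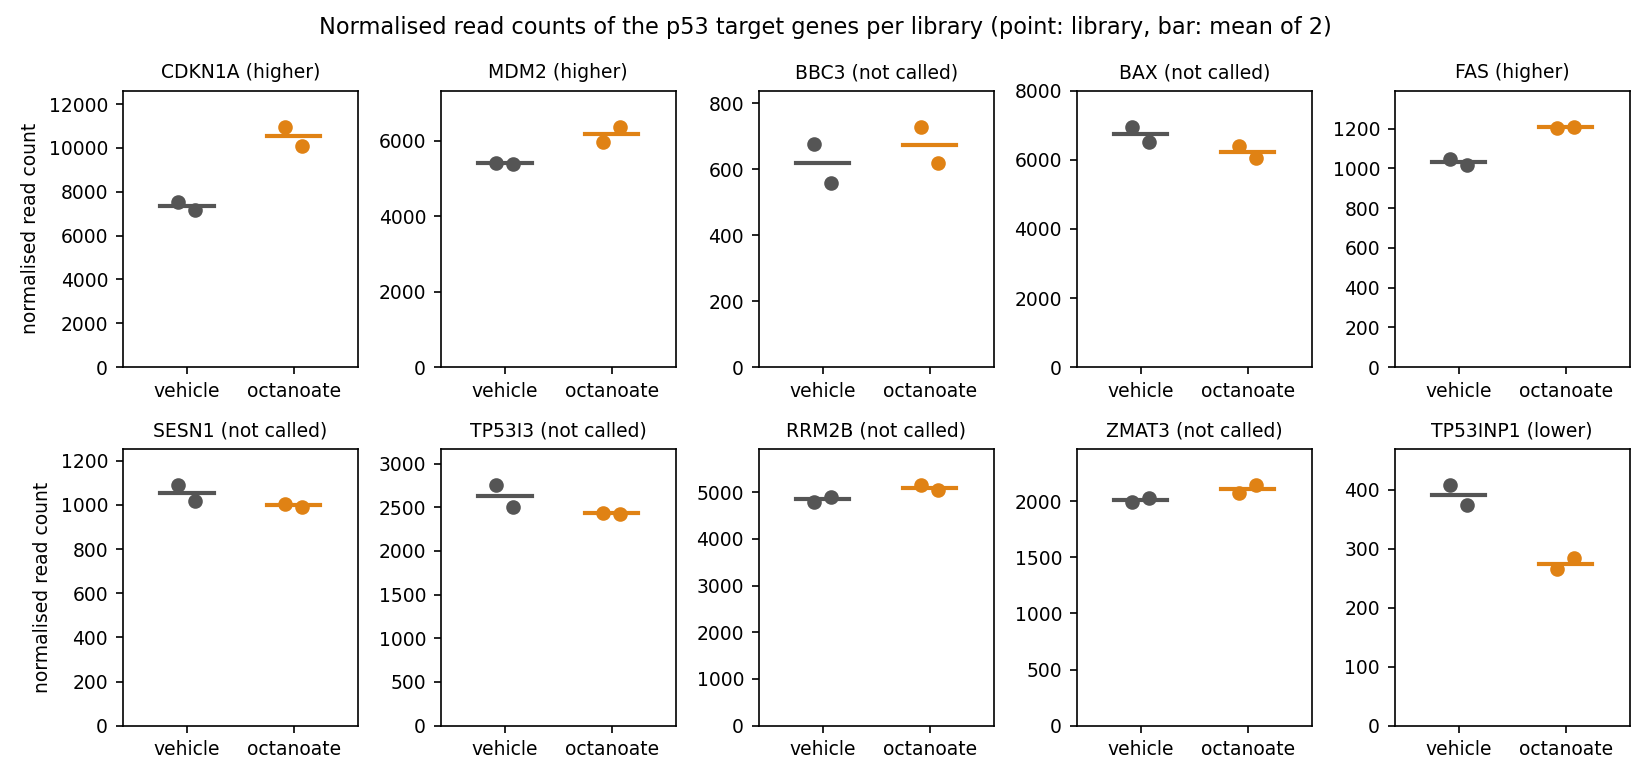
Normalised read count (vertical axes, from 0) of each p53 target gene in the 2 vehicle and 2 octanoate libraries. Points are libraries, bars are means of 2, and the result of the limma test is in each title. The octanoate points of CDKN1A, at 10109 and 10975, lie above both vehicle points, and those of TP53INP1, at 266 and 284, lie below both.

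The cell cycle arm of the group is CDKN1A, which encodes p21, an inhibitor of cyclin-dependent kinases and the classical effector of p53 arrest (GENCODE 29, protein coding, chr6:36676460-36687339, plus strand). Its normalised count was 7513 and 7147 in vehicle and 10975 and 10109 under octanoate. Both treated libraries lay above both controls, and the gap between the groups was wider than the spread within either. The means were 7330 ± 259 and 10542 ± 612 (SD, n = 2), which is a log2 difference of 0.52 (SE 0.06; adjusted p 2.34e-07 by limma). The authors' deposited table lists a log2 fold change of 0.52 with an adjusted p of 1.51e-14. Its exons overlap 146 bases of the RNA gene DINOL on the opposite strand; the labelled library kit is not a directional one, so here and in the overlaps given below reads of a gene and of its antisense partner cannot be told apart. This absolute difference was larger than that of 82.7% of all tested genes. CDKN1A was the member called under all 16 alternative ways of processing, with log2 differences from 0.45 to 0.58.

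The feedback arm is MDM2, the ligase that marks p53 for degradation (chr12:68808176-68850686, plus strand). MDM2 counts were 5417 and 5376 in vehicle and 5975 and 6373 in octanoate. The groups did not overlap, and the octanoate libraries were further apart than the vehicle libraries. The log2 difference was 0.19 (95% interval 0.07 to 0.31, SE 0.06; adjusted p 0.0141 by limma), and the authors' deposited table lists an adjusted p of 0.0135. With 1 library left out, which leaves 1 library in a group, the log2 difference was 0.15 to 0.24. The call was lost without octanoate 2, vehicle 2 or vehicle 1, fits that also called fewer genes in all. It also missed the threshold with every gene tested (limma adjusted p 0.105) and without an intensity trend in the variance prior (0.168). It held under 11 of 16 alternatives. Exons of MDM2 overlap 439 bases of the pseudogene AC025423.2 on the same strand and exons of 2 genes on the opposite strand, and its transcripts share stretches of at least 95% identity over at least 100 bases with 23 genes, so its count is uncertain. Among the overlapping genes CPM had 231 to 343 counts per library.

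2 other regulators of the feedback loop were read beside MDM2. MDM4, the paralog of MDM2 that inhibits p53 without degrading it, rose from 4589 ± 145 to 5375 ± 422 normalised counts (SD, n = 2), which is a log2 difference of 0.23 (limma adjusted p 0.00804). CDKN2A, whose ARF product inhibits MDM2, was low at 179 and 200 counts in vehicle and 218 and 204 in octanoate (limma adjusted p 0.392). Its count is not split by product and is uncertain, because its exons overlap 341 bases of CDKN2B-AS1 on the opposite strand.

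The death receptor of the group is FAS, which triggers apoptosis when bound by FAS ligand (chr10:88990582-89015785, plus strand). FAS counts were 1049 and 1015 in vehicle and 1203 and 1211 in octanoate. Neither group overlapped the other, and the 2 treated libraries nearly coincided. The log2 difference was 0.23 (95% interval 0.07 to 0.38, SE 0.07; adjusted p 0.0230 by limma). In the authors' deposited table the adjusted p of FAS was 0.0817, above the threshold. With 1 library left out, which leaves 1 library in a group, the log2 difference was 0.20 to 0.25. The call was lost in each of these fits, which also called fewer genes in all. It was lost as well with DESeq2 (adjusted p 0.0564), and by limma with every gene tested (0.0873) and without an intensity trend (0.115). It held under 9 of 16 alternatives. FAS exons share 380 bases with ACTA2 on the opposite strand, which had 153 to 174 normalised counts per library. FASLG, the ligand, had at most 6.78 counts in any library and was not tested.

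The mitochondrial death genes did not pass the test, and their fitted differences had opposite signs. BBC3 encodes PUMA, which releases BAX and BAK from their inhibitors (chr19:47220822-47232766, minus strand). Its exons overlap MIR3190 and MIR3191, both at 0 in all libraries. BBC3 counts were 676 and 560 in vehicle and 730 and 619 in octanoate, so the groups overlapped. The log2 difference was 0.13 (95% interval -0.08 to 0.33, SE 0.10; adjusted p 0.375 by limma). BAX encodes the protein that permeabilises the outer mitochondrial membrane (chr19:48954815-48961798, plus strand). BAX counts were 6962 and 6529 in vehicle and 6390 and 6046 in octanoate, with no overlap. Its log2 difference was -0.12 (95% interval -0.24 to 0.005, SE 0.06; adjusted p 0.144 by limma). BAX was called lower under 3 alternatives, each of which called a larger share of genes than the 29.9% of the reported fit. These were removal of trends with GC content and length (log2 difference -0.21, limma adjusted p 0.000472, 45.6% of genes called), the replicate block (limma adjusted p 0.0172, 41.4%) and equal column totals (limma adjusted p 0.0499, 32.5%).

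TP53I3 encodes a quinone oxidoreductase tied to reactive oxygen species in p53 death (chr2:24077433-24085861, minus strand). TP53I3 counts were 2754 and 2505 in vehicle and 2433 and 2425 in octanoate. The treated libraries were just below the lower control. The log2 difference was -0.11 (95% interval -0.25 to 0.02, SE 0.07, adjusted p 0.208 by limma). With the GC content and length trends removed it was -0.19 (limma adjusted p 0.00518). That setting called 45.6% of its genes, beside 29.9% in the reported fit. Its exons share 80 bases with FAM228B on the opposite strand, which had 87.8 to 144 counts.

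**Figure D2:**
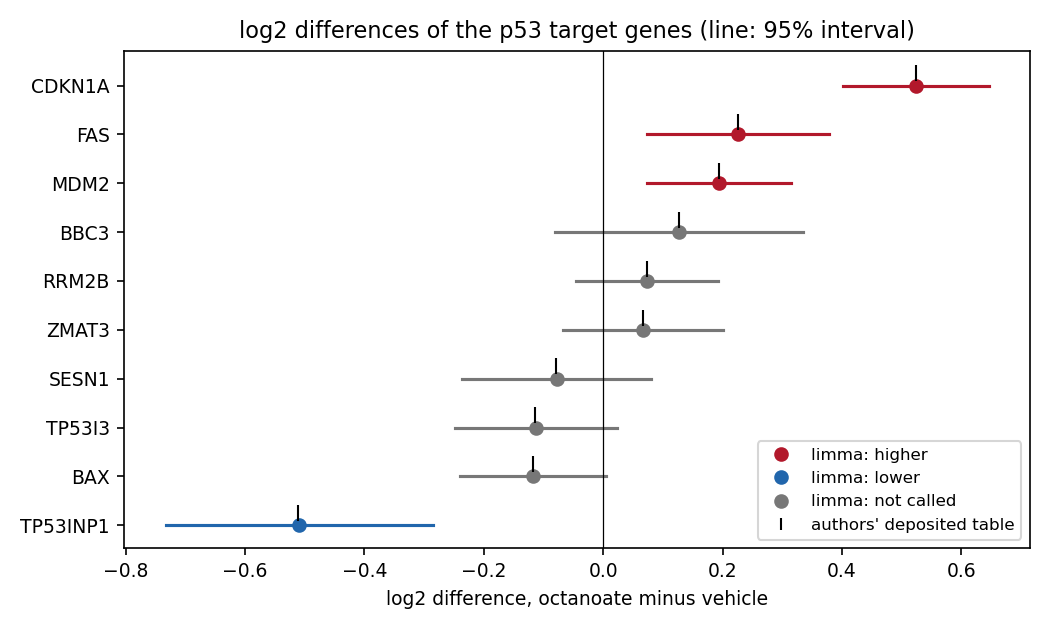
Log2 difference between octanoate and vehicle (horizontal axis) for each p53 target gene, with the 95% interval from limma as a line and the value in the authors' deposited table as a vertical tick. CDKN1A, FAS and MDM2 lie above 0 and TP53INP1 below it, and the intervals of the other 6 genes include 0.

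The genes of metabolism, nucleotide supply and RNA binding had the smallest differences and did not pass the test. SESN1 encodes sestrin 1, which restrains mTORC1 (chr6:108986437-109094819, minus strand), and had 1090 and 1016 counts in vehicle and 1006 and 988 in octanoate. Its log2 difference was -0.08 (95% interval -0.24 to 0.08, limma adjusted p 0.488). RRM2B encodes the p53-induced small subunit of ribonucleotide reductase (chr8:102204502-102239118, minus strand), and had 4799 and 4891 counts in vehicle and 5151 and 5046 in octanoate. All octanoate values of RRM2B were above the vehicle values, but the log2 difference of 0.07 (95% interval -0.05 to 0.19) had a limma adjusted p of 0.370. ZMAT3 encodes an RNA-binding protein of p53 tumour suppression (chr3:179017223-179072279, minus strand), and had 1995 and 2034 counts in vehicle and 2076 and 2145 in octanoate. The log2 difference of ZMAT3 was 0.07 (95% interval -0.07 to 0.20, limma adjusted p 0.481). Exons of SESN1 overlap 363 bases of an antisense gene, and ZMAT3 transcripts share stretches with 12 genes. The intervals of SESN1, RRM2B and ZMAT3 end below the fitted rise of CDKN1A, as do those of all other members.

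TP53INP1 went the other way. It encodes a stress protein that promotes p53 phosphorylation and takes part in autophagy (chr8:94925972-94949411, minus strand). TP53INP1 counts were 408 and 375 in vehicle and 266 and 284 in octanoate, the lowest of the 10 genes. Both treated libraries lay well below both controls. The means were 392 ± 23.6 and 275 ± 12.9 (SD, n = 2), which is a log2 difference of -0.51 (SE 0.11; adjusted p 0.000848 by limma). The authors' deposited table lists a log2 fold change of -0.51 with an adjusted p of 0.0130. The call held under 15 of 16 alternatives, the exception being the variance prior without a trend (adjusted p 0.0544). In GENCODE 29, exons of TP53INP1, RRM2B and BAX overlapped no other gene, and their transcripts shared no such stretch with one.

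Separation of the groups was common in the whole table. The octanoate libraries lay wholly above the vehicle libraries for 5 members and wholly below for 4, and BBC3 was the exception. Of all tested genes, 63.1% were separated in this way. In the authors' deposited table, CDKN1A, MDM2 and TP53INP1 (3 of 10 members) had an adjusted p under 0.05, beside 12.9% of its 33533 genes, many of which have low counts.

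Per kilobase of exon in GENCODE 29 (all exons of a gene joined, whichever isoform was used), the vehicle level was highest for BAX, at 2608 normalised counts per kilobase, followed by CDKN1A at 2403. Then came TP53I3 at 1138, RRM2B at 873, MDM2 at 406 and FAS at 243. ZMAT3 at 209, SESN1 at 206 and BBC3 at 194 overlapped one another over their 2 vehicle libraries, and TP53INP1 was last at 69.0. In octanoate the first places changed: CDKN1A stood at 3456 and BAX at 2404 counts per kilobase.

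Members were next set beside their gene families. The CIP/KIP inhibitors did not move as a set: CDKN1A rose, while CDKN1B (p27) fell from 5350 ± 34.1 to 4351 ± 229.6 normalised counts and CDKN1C (p57) from 1384 ± 82.4 to 698 ± 60.5 (SD, n = 2). The log2 differences were -0.30 for CDKN1B (limma adjusted p 0.000450) and -0.99 for CDKN1C (limma adjusted p 1.52e-09). CDK2, a kinase that these proteins inhibit, is also in the partner list and was called higher, with a log2 difference of 0.31 (limma adjusted p 0.000145); it was chosen after its values were seen.

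The sestrins, which sense amino acids and stress upstream of mTORC1, also split. SESN2 rose from 1353 and 1325 to 2064 and 1926 normalised counts (log2 difference 0.57, limma adjusted p 6.20e-07). SESN3 fell from 1196 and 1174 to 634 and 666 (log2 difference -0.86, limma adjusted p 7.29e-09), and SESN1 was not called. SESN2 is known as a target of both p53 and ATF4, while SESN3 is best known as a FOXO target.

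In the ribonucleotide reductase family no gene passed the test. RRM1, the large subunit, had a log2 difference of -0.12 (limma adjusted p 0.103) and RRM2, the S-phase small subunit, one of -0.15 (limma adjusted p 0.0575), beside 0.07 for RRM2B. RRM2 shares sequence with 3 genes, so its count is uncertain. TP53INP2, the autophagy paralog of TP53INP1, fell in parallel with it, from 636 and 617 to 484 and 512 normalised counts (log2 difference -0.33, limma adjusted p 0.00670). Differences between members of a family were not tested.

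**Figure D3:**
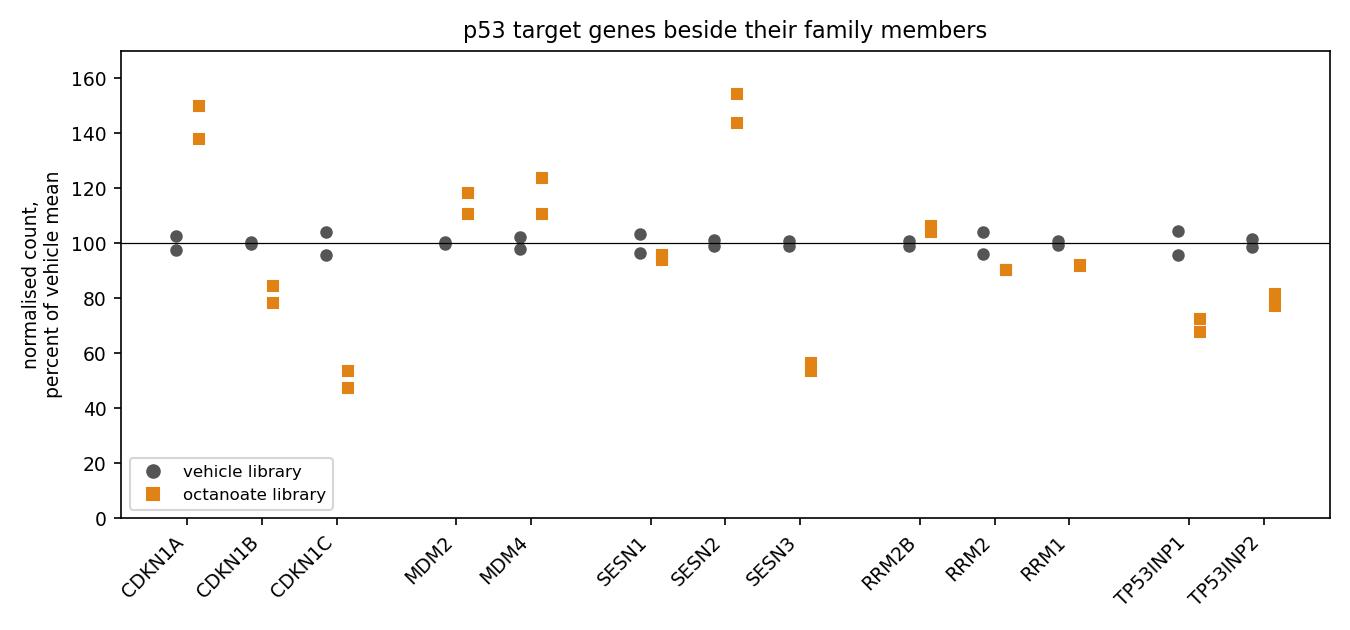
Normalised count of each p53 target gene and its family members as a percent of the vehicle mean (vertical axis, from 0). Circles are vehicle libraries and squares octanoate libraries. The octanoate libraries stand at 149.7% and 137.9% for CDKN1A, 53.6% and 47.4% for CDKN1C, 154% and 144% for SESN2, and 53.5% and 56.2% for SESN3.

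Among other partners of the members, the survival gene MCL1, whose product is neutralised by PUMA, rose from 41294 ± 612 to 68923 ± 575 normalised counts (SD, n = 2), which is a log2 difference of 0.74 (limma adjusted p 6.78e-10). In the partner list as a whole, which includes the paralogs, 6 of 19 tested genes (31.6%) were called higher and 6 (31.6%) lower, beside 16.2% and 13.7% of all tested genes. These background shares are not matched for abundance.

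The wider p53 response was read from 55 other p53 target genes, of which 52 were tested. Of these, 18 (34.6%) were called higher and 9 (17.3%) lower, beside 16.2% and 13.7% of all tested genes. No background of like abundance was set for this list. With a mean of at least 50 required, 38.3% of tested genes were called in either direction, beside 29.9% in the reported fit. The median log2 difference of the list was 0.07, the same as that of the 10 members, and its lowest value was -1.11. Without an intensity trend 7 were called higher and 2 lower. The lists were written with earlier results of these data known, so these counts are a description.

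The rises in that list were led in part by genes of stress and growth arrest. GDF15, a stress cytokine, rose from 590 ± 38.5 to 2728 ± 229 normalised counts (SD, n = 2; limma adjusted p 2.22e-16). GADD45A, a growth arrest and DNA damage gene, rose from 2715 and 2634 to 4621 and 4578 (log2 difference 0.78, limma adjusted p 3.53e-10). PMAIP1, which encodes the death protein NOXA, rose from 2207 and 2342 to 3609 and 3417 (log2 difference 0.63, limma adjusted p 4.25e-08). GDF15, GADD45A and PMAIP1 are known also to respond to the integrated stress response; the part of that input here was not tested.

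Falls in the same list were led by PLK2, a stress-induced polo-like kinase. PLK2 stood at 9889 and 9113 normalised counts in vehicle and 4247 and 4572 in octanoate (log2 difference -1.11, limma adjusted p 8.65e-13). PANK1, a pantothenate kinase of coenzyme A synthesis, had a log2 difference of -0.51 (limma adjusted p 8.04e-05), though its transcripts share sequence with 25 genes. PIDD1, the scaffold of the PIDDosome, had one of -0.39 (limma adjusted p 0.000105). Its exons overlap 2 genes on the opposite strand, 1 of them the ribosomal protein gene RPLP2 over 107 bases, so its count is uncertain. PCNA, the sliding clamp of DNA replication, had a log2 difference of -0.31 (limma adjusted p 0.000154).

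**Figure D4:**
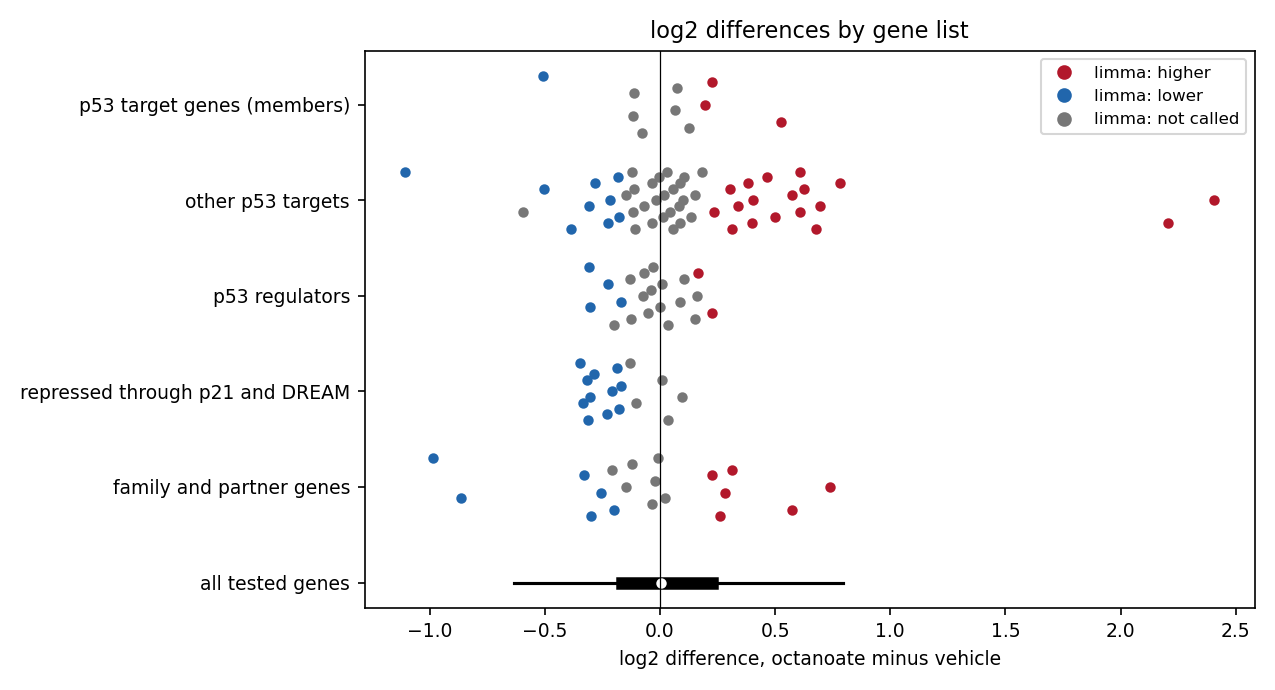
Log2 difference between octanoate and vehicle (horizontal axis) of every tested gene in each list, coloured by the limma call. The lowest row gives all tested genes, with the median as a white dot, the middle 50% as the thick bar and the 5th to 95th percentile as the thin line, from -0.63 to 0.79. The other p53 targets reach down to -1.11, and the genes repressed through p21 and DREAM lie between -0.35 and 0.09.

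The regulators of p53 were called about as often as all tested genes. Of 21 tested, 2 were called higher and 4 lower, which is 28.6% beside 29.9%, and the log2 differences ran from -0.31 to 0.23. That background is not matched for abundance. Besides MDM4, the kinase gene HIPK2 rose, with a log2 difference of 0.17 (limma adjusted p 0.0274). CREBBP, a histone acetyltransferase that acetylates p53, fell from 6099 ± 209 to 4939 ± 28.2 normalised counts (SD, n = 2; limma adjusted p 0.000272). TP53RK, a kinase gene whose count is uncertain because its exons overlap 2 genes, had a log2 difference of -0.31 (limma adjusted p 0.000480).

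Downstream of p21, the DREAM complex represses cell cycle genes. Of 16 such genes tested, 11 (68.8%) were called lower, beside 13.7% of all tested genes. The other 5 were not called. The background share is not matched for abundance. The median log2 difference over all 16 was -0.20. CCNB1, cyclin B1, fell from 23865 ± 645 to 18775 ± 396 normalised counts (SD, n = 2; log2 difference -0.35, limma adjusted p 4.25e-05). CCNB2, cyclin B2, had a log2 difference of -0.34 (limma adjusted p 6.00e-05). These genes are also known to follow the share of dividing cells, and in bulk RNA fewer cells in a phase and less RNA per cell cannot be told apart.

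**Figure D5:**
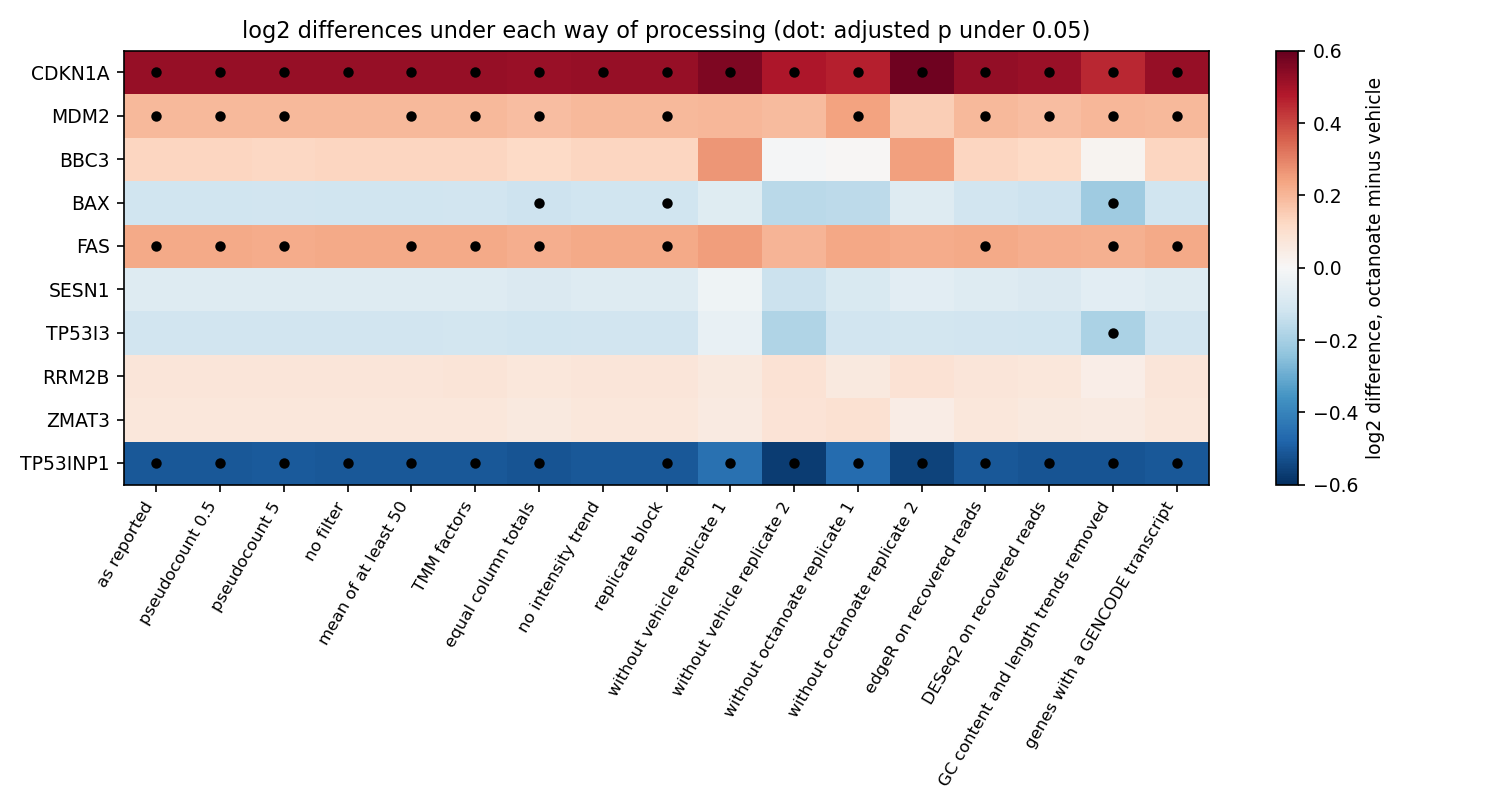
Log2 difference of each p53 target gene (colour, red for higher and blue for lower under octanoate) under the reported settings and 16 alternatives (columns). A dot marks an adjusted p under 0.05. The row of CDKN1A has a dot in every column, that of TP53INP1 in all but the column without an intensity trend, and those of MDM2 and FAS under 11 and 9 of the alternatives.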

How the data were processed

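RNA-seq libraries were processed with bcl2fastq 2.17, Trim Galore, STAR 2.4, Picard, HTSeq 0.9.1 and DESeq2 on hg38, per the submitters' processing notes. The annotation and the use of strand in counting are not given in the sources used here. The authors deposited a signal per gene and library, which the file header and name give as a DESeq2-normalised count, and a table of their own comparison with a mean signal, log2 fold changes and standard errors, a test score, and p-values with adjusted p-values. Every deposited value was a whole multiple of its library's smallest positive value (100% within a tolerance of 0.001), so whole reads were recovered for count tests and totals.

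Here log2(normalised count + 1) was fitted with limma 3.58.1 (R 4.3.3) with an intensity trend and treatment as the only term, on genes with a mean of at least 10, with two-sided tests and Benjamini-Hochberg adjustment over all genes tested. Log2 differences are on that scale, which understates changes of low genes. An exact test of 2 libraries against 2 cannot give a p below 0.333, so no gene was tested alone. The 16 alternatives used pseudocounts of 0.5 or 5, no filter, a mean of at least 50, TMM factors, equal column totals, no intensity trend, the replicate block, each library left out, edgeR 4.0.16 and DESeq2 1.42.0 on recovered reads, removal of GC content and length trends, and, added after the data were seen, only genes with a GENCODE 29 transcript. Members and lists were chosen with earlier results of these data known. Named genes were all members, a few set regulators (among them MDM4 and CDKN2A), the paralogs, the 4 smallest p in each direction among other targets, and the 2 smallest in each direction in the other lists. Some genes under this rule are not reported here. COP1 was matched as RFWD2. Shared sequence was searched with blastn 2.17.0 among GENCODE 29 transcripts. In simulated counts for this comparison (19937 genes, 200 changed before filtering) the limma fit recovered 68.2% of changes of 0.5, 77.8% of changes of 1 and 96.9% of changes of 2 on the log2 scale, and 6 of 163 calls were false. The simulation changed a far smaller share of genes than the 29.9% called here, so these figures need not hold for these data.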

Additional observations from a re-analysis of the deposited data

How the results depend on the processing

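The count of members called moved with the settings, as did the count of all genes called. With no filter, 1 member was called higher, 5 other p53 targets lower and 2595 genes in all. Without an intensity trend 1 member was called higher and 0 lower by limma (TP53INP1 had an adjusted p of 0.0544), 7 other targets were higher and 2 lower, and 1625 genes were called in all. Members called lower came to 2 with equal column totals, where 6582 genes (32.5%) were called in all. They came to 3 with GC content and length trends removed, where 6931 of 15183 genes (45.6%) were called. Leaving out each library in turn gave 1 to 2 members called higher and 5 to 8 other targets called lower. The log2 difference of BBC3, not called at any setting, was -0.0093 without vehicle 2, and ranged up to 0.26 when another library was left out. Otherwise each of the 10 members kept its sign under all 16 alternatives, and the members' median stayed between 0.03 and 0.07. Removal of GC content and length trends was fitted over the 75% of tested genes with a GENCODE 29 transcript, all members among them. It is void as a check on all tested genes. It moved the share of higher calls to 42.3%, from 52.6% over the same genes uncorrected, an alternative added after the data were seen. Leaving out a library leaves a group with 1, assumed to vary like the other group. What a shared replicate number stands for is not in the labels, and 2 pairs cannot show it (deviations of number 1 correlated at 0.27 over 13482 genes). A replicate block gave 8376 called genes and 2 members called lower. Genes in the members' range had a median standard error of 0.07, which holds counting error and the spread between libraries together.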
